A study of Mus musculus with 40 samples.

Results

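The supply of thyroid hormone to the brain depends on transporters and on local conversion of the prohormone, and 8 genes of that route and of the response to the hormone were followed across 40 arrays of neonatal mouse brain. They were the deiodinases Dio2 and Dio3, the transporter genes Slco1c1 and Slc16a4, the receptors Thra and Thrb, and the hormone-responsive genes Klf9 and Hr. Members were taken by gene symbol from the array annotation, and each was measured by 1 probe set among 19937 genes tested. C57/Bl6 mice were sampled at postnatal day 9 in 8 groups of 5 arrays. Uninjured whole brain came from pups given vehicle alone or the immunomodulatory peptide IDR-1018 alone, taken 10 h after dosing, from pups given the bacterial endotoxin lipopolysaccharide (LPS) alone, taken 6 h after it, and from pups given IDR-1018 4 h before LPS and taken 6 h after LPS. The other 4 groups were hemispheres of pups given vehicle or IDR-1018 4 h before LPS, then subjected to hypoxia-ischaemia (HI) 14 h after LPS, with removal 6 h after HI. For each of those arms, the left, injured and the right, uninjured hemisphere gave a group. None of these groups had HI without LPS, or was a hemisphere without HI, so tissue, side and time since LPS differ together with HI. The labels name no vehicle dose for the LPS-only pups.

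Thyroxine (T4) is largely a prohormone. The transporter encoded by Slco1c1, OATP1C1, carries T4 across brain endothelium and into astrocytes, and the type II deiodinase encoded by Dio2 converts T4 to the active hormone T3 in astrocytes and tanycytes, while the type III deiodinase encoded by Dio3 inactivates both hormones. T3 is then bound by the nuclear receptors encoded by Thra and Thrb, which act on targets such as Klf9, a zinc finger factor that glucocorticoids also induce, and Hr, the hairless corepressor. Slc16a4 encodes MCT5, a relative of the thyroid hormone transporter MCT8; a role of MCT5 in hormone transport is not established. In the neonatal brain the local supply of T3 governs neuronal and glial maturation.

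Promoters are printed for reference for the 3 members called in the averaged fits of both LPS and injury given further on. Those fits were added after seeing the data, and Slco1c1 passed in the LPS comparison of neither single arm. The windows run from 250 bases before to 50 bases after the RefSeq gene start on GRCm38.p6, 5′ to 3′ on the gene's strand. The first is Dio2 at chr12:90738989-90739288 on the minus strand, the second Slc16a4 at chr3:107290980-107291279 on the plus strand and the third Slco1c1 at chr6:141524104-141524403 on the plus strand. Capitals in the Dio2 window mark the palindromic cAMP response element TGACGTCA, 95 bases upstream of the start, and a TATAAA 30 bases upstream.

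Dio2: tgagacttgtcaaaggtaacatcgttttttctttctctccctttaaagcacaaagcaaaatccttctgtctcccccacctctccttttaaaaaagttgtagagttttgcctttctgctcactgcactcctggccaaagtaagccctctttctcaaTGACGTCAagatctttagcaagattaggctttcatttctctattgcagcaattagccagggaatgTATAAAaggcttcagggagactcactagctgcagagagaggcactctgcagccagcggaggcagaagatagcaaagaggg

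Slc16a4: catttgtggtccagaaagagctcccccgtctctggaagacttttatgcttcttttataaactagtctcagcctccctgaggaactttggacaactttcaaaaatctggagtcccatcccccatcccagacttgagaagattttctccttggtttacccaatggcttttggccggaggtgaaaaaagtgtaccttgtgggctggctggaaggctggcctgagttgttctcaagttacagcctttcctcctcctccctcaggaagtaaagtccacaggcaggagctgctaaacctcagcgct

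Slco1c1: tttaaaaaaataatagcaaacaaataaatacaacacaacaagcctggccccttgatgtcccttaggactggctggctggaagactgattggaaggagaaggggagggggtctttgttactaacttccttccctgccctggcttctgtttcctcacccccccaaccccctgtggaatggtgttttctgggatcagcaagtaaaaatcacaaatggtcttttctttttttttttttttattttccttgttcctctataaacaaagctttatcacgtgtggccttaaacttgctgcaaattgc

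Dio2 is known to be induced by cAMP signalling. RefSeq windows were at hand for 6 of the 8 members, 7 windows in all, and were searched on both strands for 4 motifs. TGACGTCA occurred in 1 of the 7, that of Dio2, against 1.79% of 32851 promoter windows of the same length. TATAAA occurred in 5 of the 7 against 13.6% of all windows, at 196 bases upstream in Slc16a4 and from base 3 after the start in Slco1c1. The thyroid receptor half-site AGGTCA occurred in 1 of the 7, a Thrb window, against 16.3%, and the hypoxia response core ACGTG in 3 of the 7, among them Slco1c1 and Klf9, against 19.6%. These matches describe the printed letters only, and no binding was measured.

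Array medians lay between 6.99 and 7.13 on the log2 scale, and any pair of arrays correlated at 0.987 to 0.998. Sex-linked transcripts were spread unevenly: Xist without Y-linked signal was found in 5 of 5 LPS arrays but in 2 of 5 vehicle arrays, 1 of 5 IDR-1018 arrays and 2 of 5 LPS plus IDR-1018 arrays. One injured-hemisphere array of the arm without peptide, number 3, carried both Xist and Y-linked signal. Without it, no call of a member was lost or gained in the comparisons, averages and F test that use it, with or without the block described further on, and list genes whose call was lost are named as such. The correlations over all 40 arrays include it. The labels do not say whether arrays of a group are separate animals, so p-values measure the spread between these arrays. In these homogenates, fewer cells of a type and less RNA per cell cannot be told apart.

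Over all 8 groups, 4 of the 8 members varied beyond the spread within groups, against 15.0% of all genes (limma moderated F test, Benjamini-Hochberg adjusted p under 0.05 over all 19937 genes). They were Dio2 (adjusted p = 6.965e-09), Slc16a4 (adjusted p = 7.707e-07), Slco1c1 (adjusted p = 0.00429) and Thrb (adjusted p = 0.00678). Klf9 (adjusted p = 0.435), Hr (0.857), Thra (0.958) and Dio3 (0.976) did not pass. Group means of Dio2 spanned 1.08 log2 units and those of Slc16a4 0.88, against 0.48 for Thrb and 0.40 for Slco1c1. Dio2 had its highest means after LPS and its lowest in injured hemisphere, whereas the means of Slc16a4 and Slco1c1 were low in both.

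**Figure D1:**
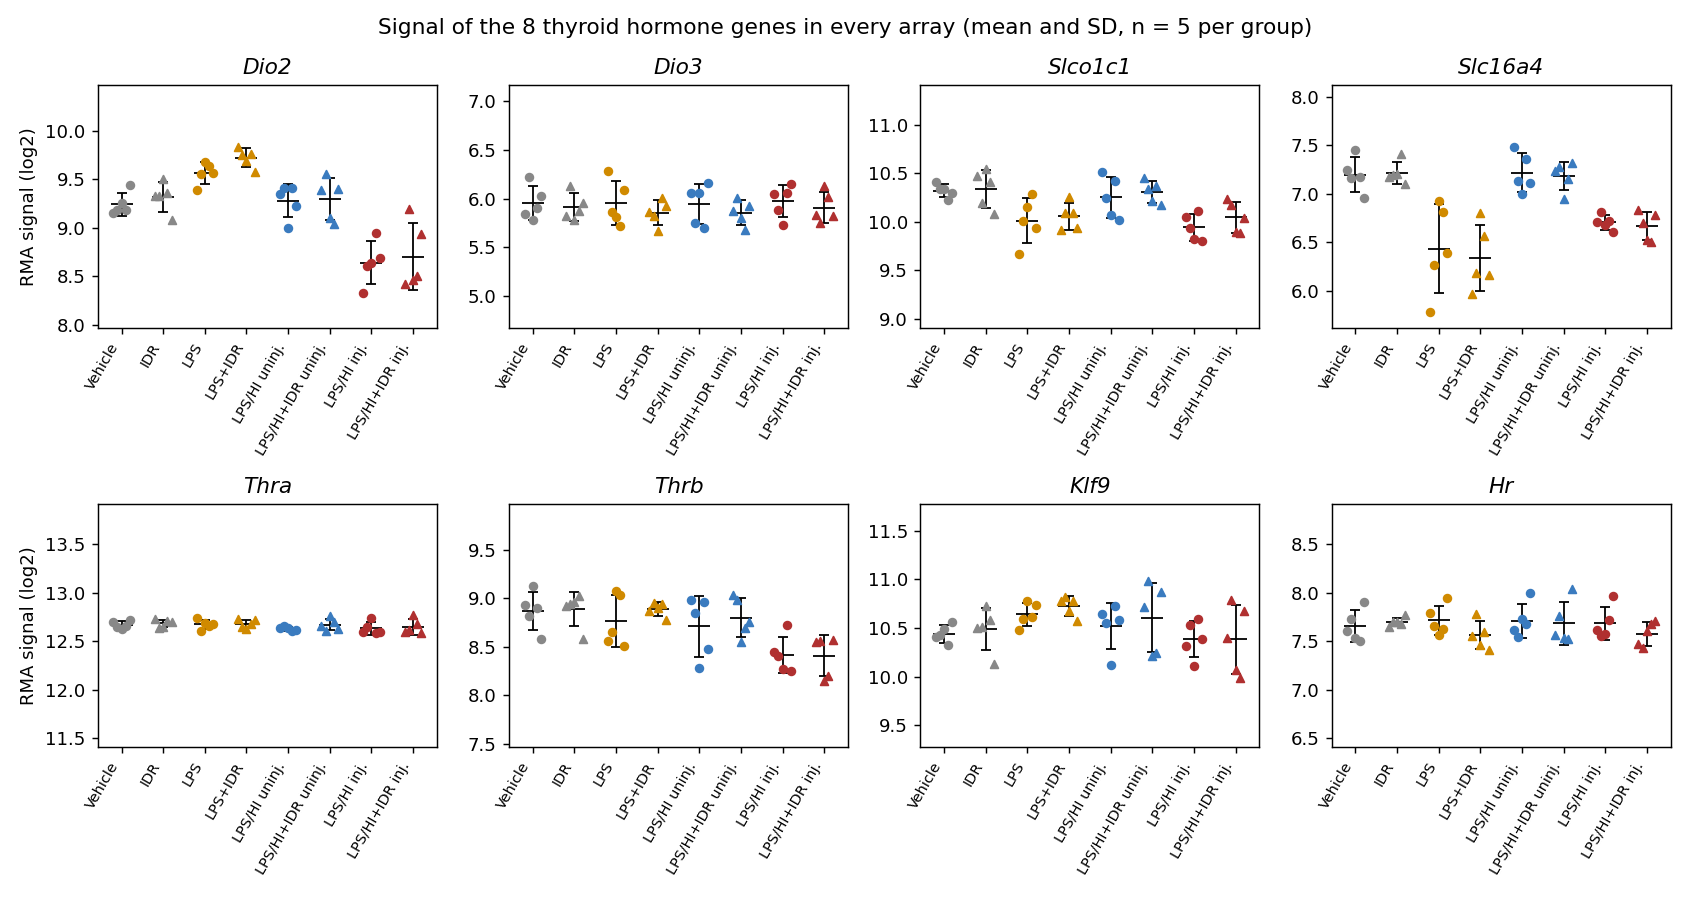
Log2 RMA signal (vertical axes, all of the same span) of the 8 genes in every array of the 8 groups; points are single arrays, bars the group mean with SD, circles arms without and triangles arms with IDR-1018. Dio2 peaks in the LPS groups (means 9.56 and 9.72) and is lowest in the injured hemispheres (8.64 and 8.70), Slc16a4 is lowest in the LPS groups (6.44 and 6.34), and the group means of Dio3, Thra and Hr span 0.16 or less.

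Dio2, the activating deiodinase, had signals of 9.16, 9.18, 9.25, 9.18 and 9.44 in the vehicle arrays. In the LPS arrays they were 9.39, 9.56, 9.68, 9.63 and 9.56. The groups overlapped only through the vehicle array at 9.44 and the LPS array at 9.39. The difference was 0.32 ± 0.07 log2 units (SE; 1.25-fold), with a limma adjusted p of 0.0747, short of the threshold. With the peptide given first, the signals were 9.83, 9.75, 9.69, 9.76 and 9.58 after LPS against 9.33, 9.32, 9.51, 9.35 and 9.08 with IDR-1018 alone. Every LPS array of that arm lay above every IDR-1018 array, and Dio2 rose by 0.40 ± 0.08 (1.32-fold, limma adjusted p = 0.0150).

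Slc16a4, the MCT5 gene, moved the other way and by more. Its vehicle signals were 7.25, 7.16, 7.45, 7.17 and 6.95, and its LPS signals 5.78, 6.26, 6.93, 6.81 and 6.39. The LPS arrays were widely spread (SD 0.46 against 0.18), yet all lay below the lowest vehicle array. The difference was -0.76 ± 0.18 (1.69-fold lower), with a limma adjusted p of 0.0848. In the peptide arm the LPS arrays read 5.96, 6.19, 6.81, 6.56 and 6.17 against 7.18, 7.19, 7.20, 7.41 and 7.10 in the IDR-1018 arrays. No array overlapped, and Slc16a4 fell by 0.88 ± 0.13 (1.84-fold lower, limma adjusted p = 0.00271).

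Slco1c1, the T4 transporter gene, read 9.67, 10.01, 10.15, 10.28 and 9.94 after LPS against 10.41, 10.34, 10.34, 10.22 and 10.29 with vehicle. A single LPS array, at 10.28, reached into the vehicle range. The difference was -0.31 ± 0.10 (limma adjusted p = 0.326), and -0.28 ± 0.09 (limma adjusted p = 0.246) in the peptide arm. Klf9, the hormone- and glucocorticoid-responsive factor, differed by 0.20 ± 0.07 without peptide (limma adjusted p = 0.460) and by 0.24 ± 0.09 with it (0.381). The receptors, the inactivating enzyme and Hr differed by less, and none passed: Thrb differed by -0.11 and 0.00, Thra by 0.01 and 0.00, Dio3 by 0.00 and -0.06, and Hr by 0.06 and -0.14 in the respective arms.

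By count, 0 of 8 members passed in LPS against vehicle, where 0.833% of all genes passed and 4 members had an unadjusted p under 0.05 in limma. In LPS plus IDR-1018 against IDR-1018, 2 of 8 passed, Dio2 higher and Slc16a4 lower, where 1.47% of all genes passed. The median difference of the members was 0.00 against -0.02 over all genes in the first comparison and -0.03 against -0.02 in the second, so the members did not share a direction. A fit of the LPS effect averaged over both arms, added after seeing the data, called 3 of 8 members against 2.84% of all genes: Dio2 higher by 0.36 ± 0.05 (limma adjusted p = 1.223e-04), Slc16a4 lower by -0.82 ± 0.12 (1.195e-04) and Slco1c1 lower by -0.30 ± 0.07 (0.0170). Klf9 was higher by 0.22 ± 0.06 in that averaged fit and missed the threshold (limma adjusted p = 0.0568). With the Xist level as covariate, the differences without peptide were 0.39 for Dio2 (limma adjusted p = 0.185) and -0.77 for Slc16a4 (0.540). The LPS groups and the injured hemispheres were compared with the same vehicle and IDR-1018 arrays.

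In uninjured hemispheres after LPS/HI, Dio2 and Slc16a4 lay near their levels in whole brain without LPS. Dio2 read 9.35, 9.41, 9.00, 9.41 and 9.23 without peptide and 9.39, 9.55, 9.10, 9.04 and 9.40 with it. Slc16a4 read 7.48, 7.14, 6.999, 7.35 and 7.11 without peptide and 7.23, 7.27, 6.94, 7.15 and 7.32 with it. The ranges of these groups overlapped those of vehicle and of IDR-1018 alone. Dio2 differed from vehicle by 0.03 (95% interval -0.15 to 0.22) and Slc16a4 by 0.02 (-0.20 to 0.24).

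None of the 8 members passed against vehicle, where 0.436% of all genes did, or in the peptide arm against IDR-1018 alone, where 0.201% did; 0 members had an unadjusted p under 0.05 in limma in either. Set against the earlier LPS groups, Slc16a4 was higher in the uninjured hemisphere by 0.78 ± 0.18 without peptide (limma adjusted p = 0.175) and by 0.85 ± 0.13 with it (0.0119), with no overlap of arrays in either arm. Dio2 differed by -0.28 ± 0.09 (limma adjusted p = 0.552) and by -0.43 ± 0.09 (0.0603). These made 0 of 8 members called without peptide, against 0.135% of all genes and with 2 members at an unadjusted p under 0.05 in limma, and 1 of 8 with peptide, against 0.637%. Whole brain and a hemisphere, and the hours since LPS, differ between these groups and cannot be told apart.

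Injured hemispheres had the lowest Dio2 of the series. The arrays read 8.33, 8.60, 8.64, 8.95 and 8.69 without peptide and 8.42, 9.20, 8.46, 8.51 and 8.93 with it. Without peptide all 5 lay below every uninjured array, and with it the array at 9.20 overlapped the uninjured arrays at 9.10 and 9.04. Dio2 fell by 0.64 ± 0.11 without peptide (1.56-fold lower, limma adjusted p = 0.00652). With peptide it differed by -0.59 ± 0.15 (1.51-fold lower), which missed the threshold in the unpaired fit (limma adjusted p = 0.0557). With the array number as a block the same difference had an SE of 0.09 and passed (limma adjusted p = 0.00405). The order of the Dio2 group means was LPS plus IDR-1018, LPS, then IDR-1018, both uninjured LPS/HI groups and vehicle within 0.08 of each other, and last the injured hemispheres with and without peptide; no comparison made within any of these 3 steps passed the test.

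Slc16a4 was also lower in injured hemisphere, at 6.71, 6.82, 6.68, 6.72 and 6.61 without peptide and 6.84, 6.70, 6.52, 6.51 and 6.78 with it. No injured array of either arm reached its uninjured group. Slc16a4 fell by 0.51 ± 0.09 without peptide (1.43-fold lower, limma adjusted p = 0.00710) and by 0.52 ± 0.09 with it (1.43-fold lower, 0.00884). The lowest injured array without peptide, 6.61, lay above 3 of the 5 LPS arrays without peptide, whose lowest was 5.78.

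Slco1c1 read 10.04, 9.93, 9.82, 10.11 and 9.80 in injured hemisphere against 10.51, 10.24, 10.07, 10.42 and 10.02 in the uninjured. Thrb, the beta receptor, read 8.44, 8.41, 8.27, 8.72 and 8.25 against 8.99, 8.85, 8.28, 8.96 and 8.48. For both genes the groups overlapped, and the injured array lay below the uninjured one of the same number in 5 of 5 numbers. Without a block the differences were -0.31 ± 0.10 for Slco1c1 (limma adjusted p = 0.132) and -0.29 ± 0.14 for Thrb (0.323). With the number as a block they were -0.31 ± 0.05 (adjusted p = 0.00783) and -0.29 ± 0.07 (0.0361).

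The hemispheres of the arm without peptide met the criterion for paired numbers, with correlations of deviations from 0.392 to 0.646, so the blocked count stands beside the unblocked one. Injured hemisphere and vehicle, groups of different pups, met it too, so it does not show that a number marks 1 pup. Between the hemispheres without peptide, 2 of 8 members passed without the block, both lower. Of all genes, 2.99% passed in either direction and 0.813% in the lower one. With the block 4 of 8 passed, all lower, against 10.2%. Without array number 3 of the injured group those 4 still passed with the block, against 12.3%: Dio2 differed by -0.71 (limma adjusted p = 0.00557), Slc16a4 by -0.56 (0.00648), Slco1c1 by -0.33 (0.0136) and Thrb by -0.36 (0.0168). In the peptide arm 1 of 8 passed without the block, Slc16a4, against 2.50% in either direction and 0.702% in the lower one; Thrb differed by -0.39 ± 0.11 (limma adjusted p = 0.0922) and Slco1c1 by -0.26 ± 0.08 (0.133). With the block 3 of 8 passed there, all lower, against 4.48%: Slc16a4 (limma adjusted p = 0.00187), Dio2 (0.00405) and Thrb (0.00962), while Slco1c1 had 0.0590. The numbers of that arm correlated at 0.0884 to 0.589, with 3 of 5 over the criterion of 0.1, and the sex-linked class was the same in both hemispheres of 5 of 5 numbers. Without a block and without array number 3 of the injured group, Dio2 differed in the arm without peptide by -0.64 (limma adjusted p = 0.0139) and Slc16a4 by -0.50 (0.0158), and 2 members still passed. A fit of the injury effect averaged over both arms, added after seeing the data, called 4 of 8 members, all lower, against 12.8%: Dio2 by -0.62 ± 0.10, Slc16a4 by -0.51 ± 0.06, Thrb by -0.34 ± 0.09 and Slco1c1 by -0.29 ± 0.07, with limma adjusted p from 1.275e-05 to 0.0181, and without injured array 3 from 3.167e-05 to 0.0337.

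**Figure D2:**
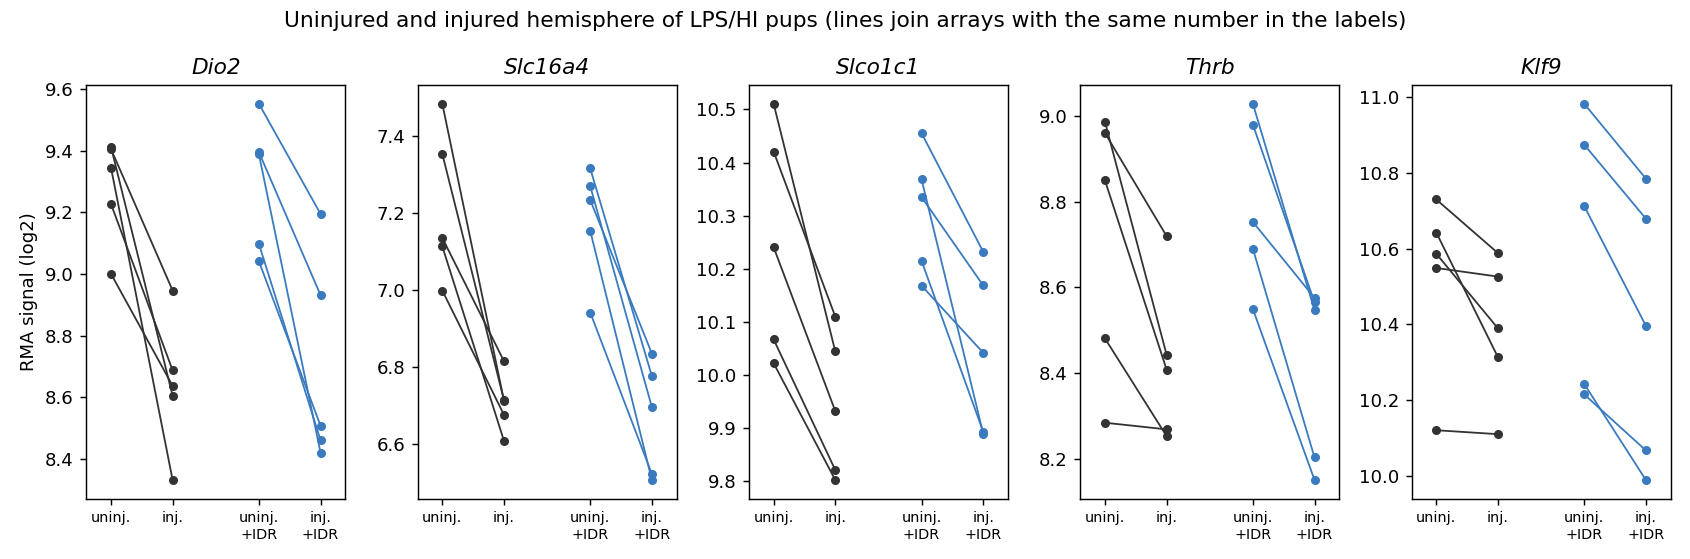
Log2 RMA signal (vertical axes) of members in the uninjured and injured hemispheres, without and with IDR-1018; each line joins the arrays of the same number in the labels. Dio2, Slc16a4, Slco1c1, Thrb and Klf9 are lower in the injured array of every one of the 5 numbers in both arms, by as little as 0.01 for Klf9 and as much as 1.01 for Dio2.

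Read by number, Dio2 was lower in the injured hemisphere by 1.01, 0.81, 0.36, 0.46 and 0.54 without peptide and by 0.97, 0.36, 0.64, 0.53 and 0.46 with it, on the log2 scale. Klf9 was lower in all 5 numbers of both arms as well, but by only 0.01 to 0.33 without peptide and 0.15 to 0.32 with it. Its difference was -0.14 ± 0.12 without peptide (limma adjusted p = 0.667; 0.171 with the block) and -0.22 ± 0.18 with it (0.672; 0.0650 with the block). The blocked 95% intervals were -0.27 to -0.01 without peptide and -0.35 to -0.09 with it, and neither difference passed over all genes. In the peptide arm Klf9 differed between numbers more than between hemispheres. Numbers 3 and 4 read 10.21 and 10.24 uninjured and 10.07 and 9.99 injured, while numbers 1, 2 and 5 read 10.71, 10.98 and 10.87 uninjured and 10.40, 10.78 and 10.68 injured. Those low numbers 3 and 4 were the 2 of 5 with Y-linked signal, in both hemispheres; the part of this in the levels was not tested.

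Against uninjured whole brain, 4 of 8 members fell in the injured hemisphere, where 8.34% of all genes changed in either direction and 3.89% fell. Dio2 fell by 0.60 ± 0.10 (limma adjusted p = 0.00168), Slc16a4 by 0.49 ± 0.08 (0.00221), Slco1c1 by 0.38 ± 0.07 (0.00499) and Thrb by 0.45 ± 0.11 (0.0167). For Thrb the groups overlapped, with the injured array at 8.72 above the vehicle array at 8.58. The call of Thrb was lost with Xist as covariate (-0.40, limma adjusted p = 0.0669). In the peptide arm 3 of 8 members fell against IDR-1018 alone, where 5.87% of all genes changed and 2.35% fell: Slc16a4 by 0.55 ± 0.08 (limma adjusted p = 0.00186), Thrb by 0.48 ± 0.11 (0.0199) and Dio2 by 0.62 ± 0.14 (0.0212). The call of Slc16a4 was kept whichever single array was left out; that of Dio2 was lost without IDR-1018 array 1, 2, 3 or 4 or injured array 1, and that of Thrb without IDR-1018 array 1, 2, 3 or 4, with adjusted p up to 0.0600 and 0.0569. Both calls were also lost with the number as a block, at the same differences (limma adjusted p = 0.0764 for Dio2 and 0.0915 for Thrb), in a comparison whose numbers did not meet the pairing criterion. Slco1c1 differed by -0.29 ± 0.10 in that comparison (limma adjusted p = 0.109), and passed without IDR-1018 array 5 (0.0432). Without injured array 3, all 4 members still passed against vehicle in the arm without peptide. Median differences of the members were -0.22 and -0.21 against -0.01 over all genes in both comparisons, which share no arrays with each other.

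**Figure D3:**
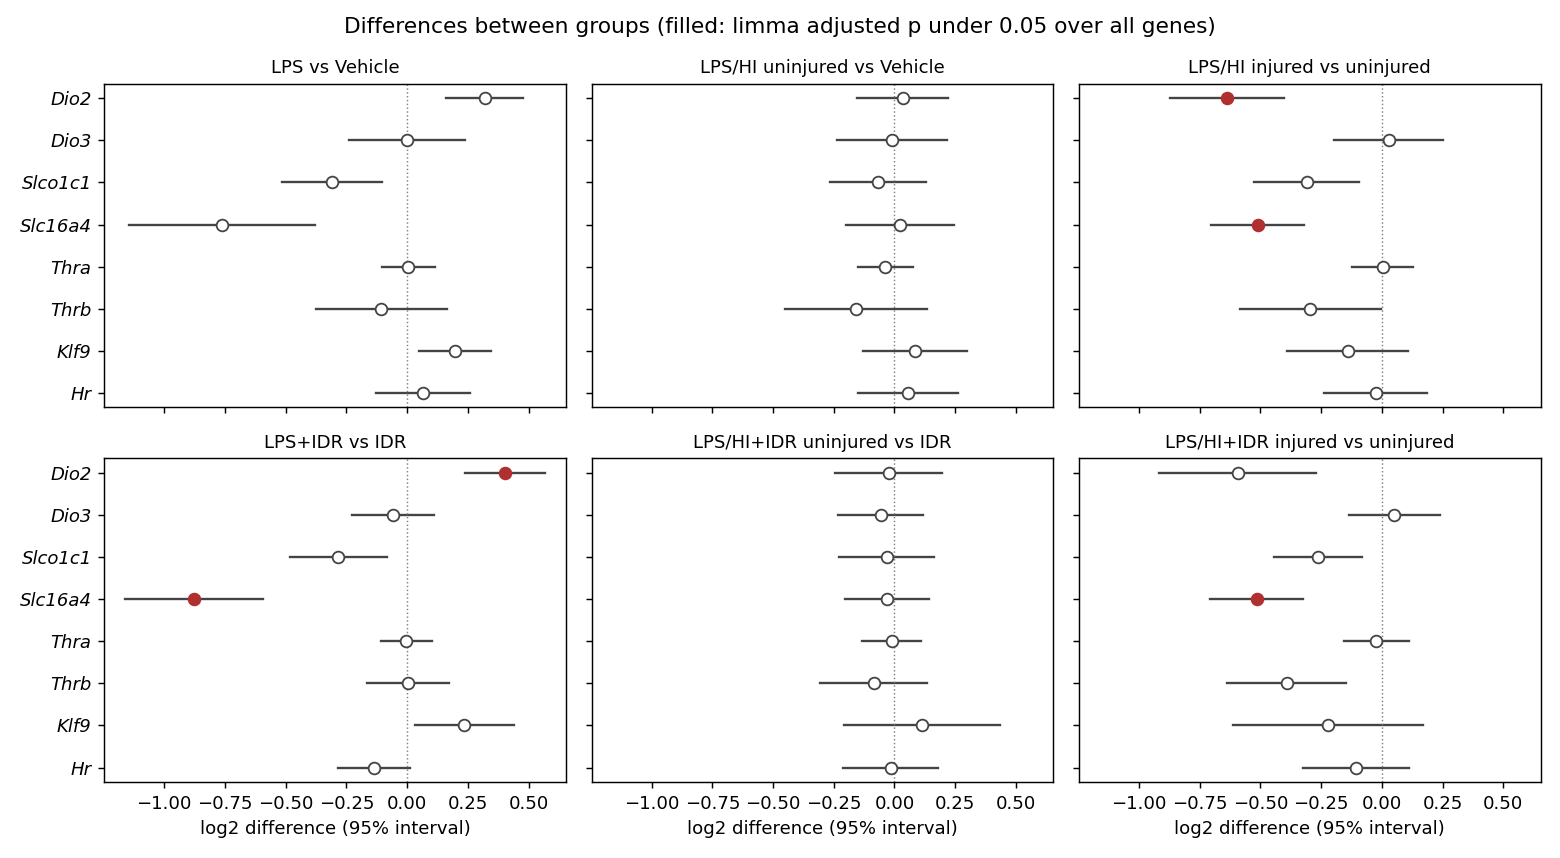
Log2 differences (horizontal axis) with 95% intervals for the 8 members in 6 comparisons, 3 per arm; filled points passed the limma test over all genes. Dio2 lies right of 0 after LPS and left of 0 in injured against uninjured hemisphere, Slc16a4 lies left of 0 in both, and all 8 intervals span 0 in uninjured LPS/HI hemisphere against vehicle.

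Dio3, Thra and Hr varied little between groups, and Klf9 varied more but also within groups. Dio3 group means lay between 5.86 and 5.98 and its arrays between 5.67 and 6.28. Its mean over the 40 arrays, 5.92, exceeded that of only 23.3% of genes. The values carry no detection calls, so whether the Dio3 signal stood above background cannot be told. Thra, the alpha receptor, was the steadiest, with group means from 12.63 to 12.68 and arrays from 12.58 to 12.77. Hr group means lay between 7.56 and 7.72 and its arrays between 7.41 and 8.04. Klf9 group means ran from 10.38 in the injured hemisphere with peptide to 10.73 after LPS plus IDR-1018, with SD from 0.09 to 0.36. Their span of 0.34 was near the 0.40 of Slco1c1, but the pooled SD within groups was 0.23 for Klf9 against 0.16 for Slco1c1. The 95% intervals of injured against uninjured hemisphere without peptide were -0.20 to 0.25 for Dio3, -0.12 to 0.13 for Thra, -0.24 to 0.21 for Hr and -0.39 to 0.11 for Klf9, so that a fall of Klf9 by up to 0.39 on the log2 scale lay within its interval.

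No member passed the limma test for IDR-1018 itself. Against the matched group without peptide, 0 of 8 members and 0% of all genes passed in otherwise untreated brain, after LPS, in injured hemisphere and in uninjured hemisphere; the unadjusted p was under 0.05 for 0, 1, 0 and 0 members and for 321, 2674, 277 and 376 genes. The 1 member was Dio2 after LPS, higher with peptide by 0.16 ± 0.07 (95% interval 0.01 to 0.30, limma adjusted p = 0.347). In injured hemisphere the peptide difference was 0.06 for Dio2 (95% interval -0.26 to 0.38) and -0.04 for Slc16a4 (-0.20 to 0.13); without injured array 3 it was 0.06 (-0.30 to 0.42) and -0.05 (-0.23 to 0.14). Interaction tests of the difference itself called 0 of 8 members for LPS by IDR-1018, against 0.00502% of all genes, and 0 of 8 for injury by IDR-1018, against 0%, with 0 members at an unadjusted p under 0.05 in limma in either. The LPS differences of Dio2 in the arms differed by 0.08 (95% interval -0.14 to 0.31) and those of Slc16a4 by -0.12 (-0.62 to 0.38).

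Other genes of the route were counted from related lists. For these counts and those of cell markers, the shares of all genes called after LPS were 0.833% without and 1.47% with peptide. In injured hemisphere they were 8.34% against vehicle and 5.87% against IDR-1018. Against uninjured hemisphere they were 2.99% without and 2.50% with peptide, and with the block 10.2% and 4.48%. Of 7 measured transport and binding genes, 0 passed after LPS in either arm. In injured against uninjured hemisphere Crym, which encodes a T3-binding protein of the cytosol, fell by 0.29 ± 0.06 without peptide (limma adjusted p = 0.0218) and by 0.39 ± 0.06 with it (0.00386), and Slc16a10, an aromatic amino acid transporter that also carries T3, rose by 0.35 ± 0.09 without peptide (0.0498). With the number as a block, Slco1a4, an organic anion transporter of brain endothelium, was lower as well, by 0.51 ± 0.06 without peptide (0.00166) and by 0.50 ± 0.07 with it (0.00273). Its means were 7.71 and 7.77 in injured and 8.21 and 8.27 in uninjured hemisphere, without and with peptide. In vehicle and in IDR-1018 whole brain its mean was 7.82, so the uninjured hemispheres stood above whole brain. Against vehicle, Crym fell by 0.31 ± 0.06 (0.00644) and Slc7a5, a large neutral amino acid transporter, rose by 0.23 ± 0.07 (0.0414). Against IDR-1018, Crym fell by 0.30 ± 0.05 (0.00538). Of 6 genes of deiodinase handling and iodide, among them Dio1, 0 passed in any of these comparisons.

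Of 9 measured receptor partners and coregulators, 0 passed after LPS in either arm. Rxrg, a retinoid X receptor that pairs with thyroid hormone receptors, fell in injured hemisphere by 0.53 ± 0.10 against vehicle (limma adjusted p = 0.00321) and by 0.52 ± 0.11 against IDR-1018 (0.0118). Tbl1xr1, a subunit of corepressor complexes, fell by 0.37 ± 0.09 against vehicle (0.0230), and Rxra, another retinoid X receptor, rose by 0.33 ± 0.08 against vehicle (0.0167) and by 0.32 ± 0.05 against IDR-1018 (0.00410). Against uninjured hemisphere, Rxrg fell by 0.47 ± 0.11 with peptide (0.0370). Without peptide 0 of the 9 passed without the block, where Rxrg differed by -0.32 (0.0909). With the block 2 passed, against 10.2% of all genes: Rxrg, which fell by 0.32 ± 0.05 (0.00514), and Rxra, which rose by 0.21 ± 0.05 (0.0355).

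Of 12 measured T3-responsive genes, 1 passed after LPS, Thrsp, a lipogenic gene, which rose by 0.52 ± 0.08 without peptide (limma adjusted p = 0.00309) and by 0.37 ± 0.07 with it (0.00938). In injured hemisphere against vehicle, Stard4, a sterol transfer protein, fell by 0.64 ± 0.08 (1.860e-04) and Mbp, a myelin protein, rose by 0.44 ± 0.12 (0.0341); with the number as a block Kcnj10, an astrocyte potassium channel, fell as well, by 0.28 ± 0.07 (0.0272), a call lost without injured array 3 (0.0718). Against IDR-1018, Stard4 fell by 0.42 ± 0.09 (0.0142) and Sema7a, a semaphorin, by 0.34 ± 0.07 (0.00934). The mean of Stard4 was 7.93 in injured and 8.22 in uninjured hemisphere without peptide, against 8.57 with vehicle. For Mbp the means were 10.41, 10.24 and 9.97, so neither difference from vehicle was particular to the injured side. None of the 12 passed in injured against uninjured hemisphere without a block in either arm. With the block 3 fell without peptide, against 10.2% of all genes changed: Stard4 by 0.29, Kcnj10 by 0.24 and Camk4, a calcium-dependent kinase, by 0.21. With peptide 0 passed with the block. The list's median without peptide was -0.10 in injured against uninjured hemisphere, against 0.01 over all genes.

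Glucocorticoid-responsive genes, listed because Klf9 answers to both hormones, rose after LPS in 4 of 10 cases without peptide and 7 of 10 with it. Of all genes, 0.833% and 1.47% passed there. The list's medians were 0.28 and 0.38 against -0.02 over all genes. Without peptide, Sult1a1 rose by 0.96 ± 0.11 (limma adjusted p = 3.336e-04), Fkbp5, a chaperone of the glucocorticoid receptor, by 0.62 ± 0.07 (2.808e-04), Zbtb16 by 0.54 ± 0.08 (0.00413) and Tsc22d3 by 0.40 ± 0.08 (0.0333). With peptide, the 4 that rose most were Fkbp5 by 0.92, Sult1a1 by 0.92, Pdk4 by 0.64 and Zbtb16 by 0.57. Their mean log2 level per array was 8.49 to 8.58 with vehicle and 8.85 to 8.99 after LPS, without overlap. In injured hemisphere against vehicle 4 of 10 rose, against 8.34% of all genes changed: Sult1a1 by 0.76, Pdk4 by 0.37, Nfkbia by 0.30 and Errfi1 by 0.27. The mean of Sult1a1 was 7.35 in injured and 7.57 in uninjured hemisphere without peptide, against 6.59 with vehicle, so its higher level was not particular to the injured side. Against IDR-1018, where 5.87% of all genes changed, Tsc22d3 rose by 0.40. In injured against uninjured hemisphere without peptide, 1 of 10 passed, Pdk4, a kinase of pyruvate dehydrogenase, higher by 0.54 ± 0.08 (0.00369). With the block, where 10.2% of all genes passed, 3 rose, Pdk4, Errfi1 by 0.25 (0.0195) and Nfkbia by 0.23 (0.0314, and 0.0540 without injured array 3). Zbtb16 fell there by 0.24 (0.0210). With peptide 0 of 10 passed without the block, and with it Pdk4 rose by 0.58, Errfi1 by 0.34 and Tsc22d3 by 0.30.

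Cell markers moved unevenly beside the members, and their part in the results was not tested. After LPS, 2 of 10 astrocyte markers rose, Gjb6 by 0.62 ± 0.09 and Fgfr3 by 0.51 ± 0.09, and the astrocyte level per array was 9.99 to 10.11 against 9.85 to 9.94 with vehicle. Endothelial markers split: Tek fell by 0.85 ± 0.14 and Slc2a1 rose by 0.56 ± 0.07, with levels per array of 8.34 to 8.72 against 8.71 to 8.79. In the peptide arm 3 of 10 endothelial markers fell after LPS, Tek by 0.80, Kdr by 0.63 and Tie1 by 0.29, and Slc2a1 rose by 0.69. Of 6 microglial markers, 1 passed in LPS against vehicle, Gpr34, which fell by 0.52 ± 0.10. The microglial level per array was 7.40 to 7.72 after LPS against 7.56 to 7.86 with vehicle. No pericyte, choroid plexus or tanycyte and ependyma marker passed in LPS against vehicle.

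In injured against uninjured hemisphere without peptide, astrocyte markers split. Fgfr3 was lower by 0.44 ± 0.08, with means of 9.40 injured, 9.85 uninjured and 9.51 in vehicle whole brain. Gfap, a filament protein of reactive astrocytes, was higher by 0.38, a difference that passed with the block (limma adjusted p = 0.00247) and not without it. The level of 10 astrocyte markers per array was 9.94 to 10.10 in injured against 9.91 to 10.09 in uninjured hemisphere. With peptide 0 of 10 passed without the block, and with it Gfap rose by 0.38 and Aldh1l1 by 0.26. The endothelial marker Pecam1 rose by 0.39 ± 0.08 without peptide and by 0.46 ± 0.11 with it, where Cdh5 rose as well, by 0.36 ± 0.07. Of 8 neuronal markers, Neurod6 fell by 0.73 ± 0.14 without peptide and by 0.77 ± 0.16 with it. With the block 4 of 8 fell without peptide, against 10.2% of all genes changed: Neurod6, Tubb3 by 0.43, Slc17a7 by 0.20 and Snap25 by 0.19. The calls of Slc17a7 and Snap25 were lost without injured array 3. The neuronal level per array was 11.12 to 11.30 in injured against 11.39 to 11.49 in uninjured hemisphere, without overlap.

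Also in that comparison, the microglial marker P2ry12 fell by 0.45 ± 0.11 and the oligodendrocyte progenitor marker Pdgfra by 0.35 ± 0.09, calls that were kept with the block and lost, without it, when injured array 3 was left out. With the block Cspg4, another marker of those progenitors, fell by 0.27, the pericyte marker Anpep by 0.24 and the choroid plexus marker Kcnj13 by 0.31; that of Anpep was lost without injured array 3. Without the block no pericyte, choroid plexus or tanycyte and ependyma marker passed in it. The level of 6 microglial markers per array was 7.50 to 7.76 in injured against 7.54 to 7.92 in uninjured hemisphere. That of 6 oligodendrocyte lineage markers was 8.84 to 9.07 against 8.84 to 9.28, so both lists overlapped. Of these markers Cx3cr1, Aif1 and Mog had higher means in injured hemisphere, and the rest equal or lower means. Against vehicle, Gfap rose in injured hemisphere by 0.63 ± 0.10, Slc2a1 by 0.57 ± 0.11 and the microglial marker Aif1 by 0.37 (limma adjusted p = 0.0351). That call of Aif1 was lost without injured array 3 (0.0647). Neurod6 fell there by 0.86 ± 0.14, P2ry12 by 0.61 ± 0.09, Kcnj13 by 0.52 ± 0.13 and the pericyte marker Rgs5 by 0.33 ± 0.07. The mean of Rgs5 was 10.50 in both injured and uninjured hemisphere without peptide and 10.83 with vehicle. For Aif1 the means were 6.49 injured, 6.46 uninjured and 6.12 with vehicle, and for Slc2a1 10.78, 10.61 and 10.21. Higher levels of these genes were thus not particular to the injured side. For Gfap the means were 10.10 injured, 9.72 uninjured and 9.47 with vehicle. The choroid plexus markers Otx2 and Aqp1 had higher means in injured hemisphere, 7.94 and 7.01, than with vehicle, 7.69 and 6.87. The lowest mean signal of any marker over the 40 arrays was 5.52, and the values carry no detection calls.

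**Figure D4:**
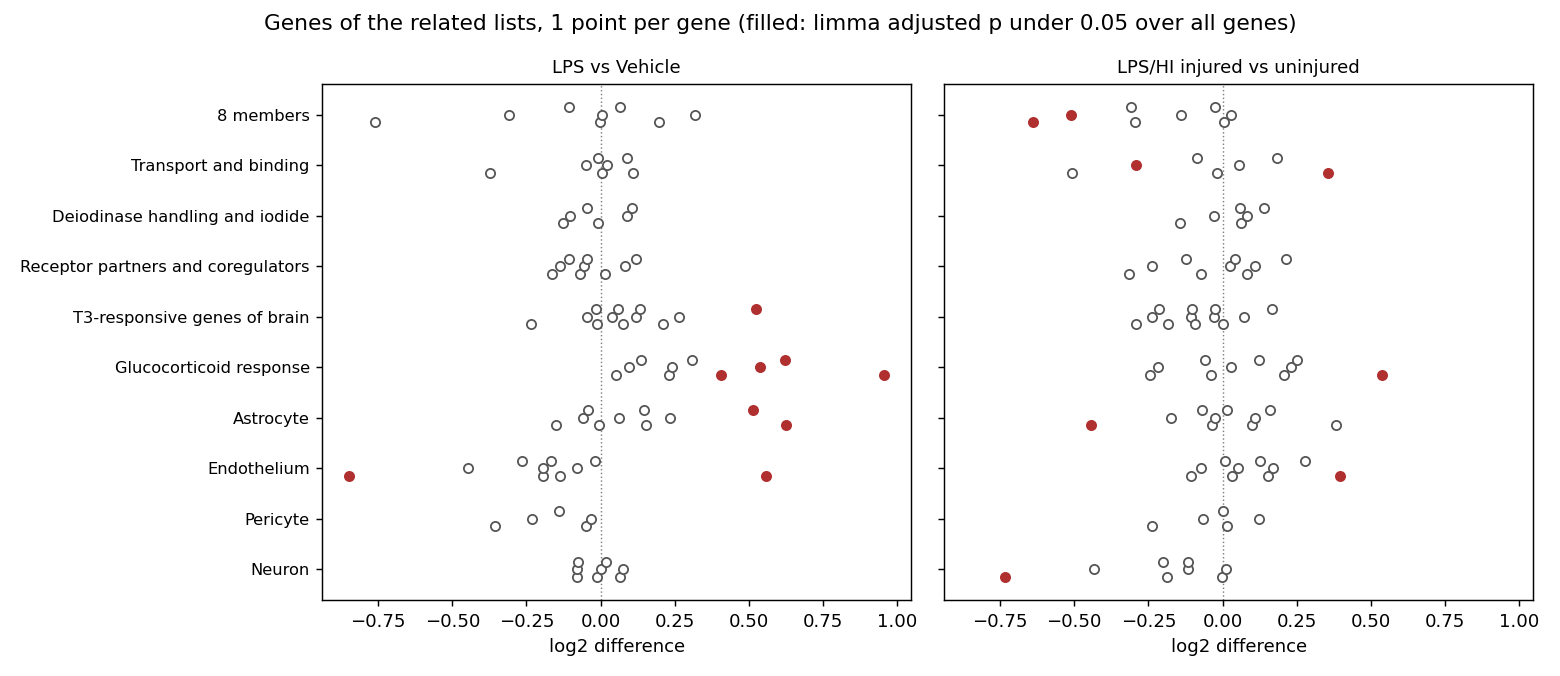
Log2 differences (horizontal axis) of the 8 members and of the genes in 9 related lists (rows), 1 point per gene, in LPS against vehicle and in injured against uninjured hemisphere without peptide; filled points passed the limma test over all genes. After LPS the glucocorticoid-responsive row lies mostly right of 0 (median 0.28), and in injured hemisphere Dio2 and Slc16a4 are the filled points left of 0 in the members' row.

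Across the 40 arrays, the likeness of members' patterns was described pair by pair, by Pearson correlation over arrays that share the groups. Slco1c1 and Slc16a4, both transporter genes, correlated at 0.79, and at 0.71 for deviations from the group means. That 0.71 was not particular to the pair: by deviations, Abca9 at 0.74 ranked only 679 among genes set against Slco1c1. Dio2 correlated with Klf9 at 0.72 (0.83 for deviations) and with Thrb at 0.73 (0.56), and with Slc16a4 at -0.04 (0.26). Thrb also correlated with Slco1c1 at 0.70 (0.76), while Dio2 and Slco1c1 correlated at 0.30 (0.38). By deviations, Csgalnact1 at 0.77 ranked only 348 against Slco1c1, and Kcnn2 at 0.64 only 307 against Dio2. The deviation correlations of Thrb with Slco1c1 and with Dio2 lay below these and were not particular either. Dio3 correlated with Hr at 0.56 (0.57).

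The genes most like each member over the 40 arrays were, for Dio2, Asic2 at 0.87 (0.43 for deviations), Tuba4a at 0.86 (0.77) and Kcnn2 at 0.85 (0.64). For Slc16a4 they were Tek at 0.83 (0.77), Slc40a1 at 0.83 (0.66) and Cd33 at 0.80 (0.58). For Slco1c1 they were Abca9 at 0.84 (0.74), Slitrk2 at 0.83 (0.78) and Csgalnact1 at 0.83 (0.77). The likeness of Asic2 to Dio2 thus lay mostly between groups, and that of Tek to Slc16a4 also within them. Thrb was matched more closely, by Cog5 at 0.94 (0.91), Atp2b1 at 0.94 (0.91) and Prkdc at 0.94 (0.90), and Klf9 by Abcd2 at 0.89 (0.93), Gpr158 at 0.89 (0.91) and Grin2a at 0.88 (0.90). For the level members the closest were Chgb for Hr at 0.84 (0.84), Ankra2 for Thra at 0.79 (0.79) and Mospd4 for Dio3 at 0.77 (0.76).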

How the data were processed

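Total RNA of 40 brain samples was hybridised to Affymetrix arrays, per the labels. The deposited values are log2 signals made by the authors with RMA in affy, per the submitters' processing notes, which give no versions; RMA makes arrays comparable in distribution. Of 34760 probe sets, 21640 had 1 gene symbol in the platform annotation, 1321 several and 11799 none; the probe set with the highest mean stood for each of 19937 genes, with no signal filter. Groups followed the labels. Pairs of groups were compared in limma 3.58.1 (R 4.3.3; lmFit and eBayes on the arrays compared), with Benjamini-Hochberg adjustment over all genes and a threshold of 0.05; fits were tested on simulated data. Differences are first-named minus second-named group, with SE. The members and lists were chosen with earlier results of these data known. All 8 members are named; of the pathway lists, genes that passed are named, up to 4 per list and comparison described, by size of difference, with examples of the cell markers, and the 3 closest genes by correlation, passing over clone names and sex-linked genes.

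Replicate numbers counted as paired where deviations from group means correlated over 0.1 in every number. This held for the hemispheres without peptide, and for injured hemisphere without peptide against vehicle (0.116 to 0.443), where the block changed no member's call. No label says what a number marks. In the hemispheres with peptide, 3 of 5 numbers did so, and both fits are given. Alternatives were 1 fit of all 8 groups, a mean signal of at least 5 (17452 genes), median centring, the mean of all probe sets, the Xist level as covariate, the replicate block, and leaving out each array; averages over both arms, and blocked and list results without injured array 3, were added after seeing the data. The number of arrays limits precision: the median 95% interval of a gene reached 0.15 to 0.18 to either side of a difference. Promoter windows are from RefSeq on GRCm38.p6; the array annotation gives no coordinates used here.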

Additional observations from a re-analysis of the deposited data

Results flagged for a closer look

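Thrb read 8.58 in IDR-1018 array 5, while the other 4 arrays of that group lay between 8.92 and 9.02, so the gap below them took 0.774 of the group's range, above Dixon's critical value of 0.71 for 5 samples. It was the only such value among 64 combinations of member and group. At that limit chance gives such a value in about 1 in 20 combinations, so 1 in 64 lies below that rate. Dio2, Slco1c1, Slc16a4 and Klf9 were also lowest of their group in that array, at 9.08, 10.08, 7.10 and 10.13. Thrb was lowest in array 5 of the vehicle, LPS, LPS plus IDR-1018 and injured (without peptide) groups too, but not in the remaining groups. The other members in that array were not beyond the same limit.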

How the results depend on the processing

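Counts of members called are given here as the reported value and then the value under the alternative. In LPS against vehicle, 0 became 1 in a fit of all 8 groups and 1 with the replicate block (Slc16a4 in both), and 3 in the average over both arms; leaving out single arrays gave 0 to 1. In LPS plus IDR-1018 against IDR-1018, 2 became 1 in a fit of all 8 groups, where Dio2 had a limma adjusted p of 0.0801. In the injured hemisphere with peptide against IDR-1018, 3 became 1 with the replicate block, Slc16a4, and 1 to 4 without single arrays. In injured against uninjured hemisphere without peptide, 2 became 4 with the replicate block and 4 in the average over both arms, and 4 in each of these without injured array 3. With peptide, 1 became 2 in a fit of all 8 groups, 2 with arrays centred on their medians, 3 with the Xist covariate, 3 with the replicate block and 4 in the average over both arms, and 1 to 2 without single arrays; the second array of the injured group decided Dio2 (-0.72, adjusted p = 0.0163 without it). In uninjured hemisphere against LPS, 0 became 1 in a fit of all 8 groups. With peptide, 1 became 2 with arrays centred on their medians and 2 with the Xist covariate, and 1 to 2 without single arrays, where Dio2 passed without uninjured array 2 (-0.49, adjusted p = 0.0221). In LPS against vehicle, Dio2 passed without vehicle array 5 (0.37, adjusted p = 0.0198) or LPS array 1 (0.36, 0.0295), and Slc16a4 without LPS array 3 (-0.88, 0.0247) or 4 (-0.85, 0.0469). The cause of these changes was not tested.

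The other 301 recomputed counts stayed within 1.5 times the reported one. For single members with an unadjusted p under 0.05, 462 recomputed differences kept their side of the threshold, 33 newly passed, 13 no longer passed and 0 reversed. The replicate block changed no other call of a member than those named here and in the report; its effect on list genes is given with them.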
